A study of Homo sapiens with 8 samples.

Results

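The 9 genes described here code for subunits of class I phosphoinositide 3-kinase (PI3K) and for enzymes that act on its lipid product or on AKT. They were taken by symbol from a deposited table of 60282 genes. The catalytic subunits are PIK3CA (p110 alpha), PIK3CB (p110 beta) and PIK3CD (p110 delta), and the regulatory subunits are PIK3R1 (p85 alpha) and PIK3R3 (p55 gamma). The remaining 4 genes set what happens after the lipid is made. INPP4B is a lipid phosphatase, PHLPP1 and PHLPP2 are protein phosphatases that remove an activating phosphate from AKT, and PDPK1 is the kinase that adds the other one. INPP4B is therefore the sole lipid phosphatase of the set.

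Class I PI3K is a dimer of a catalytic and a regulatory subunit. At the membrane, once recruited by activated receptors, it phosphorylates a phosphoinositide to give PIP3, which draws AKT and PDPK1 to the same place. AKT is switched on there, and it then phosphorylates FOXO factors, TSC2 and other substrates that bear on growth and survival. Phosphatases of the lipid and of AKT itself act against this.

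RNA was sequenced from SK-UT-1, an established human uterine leiomyosarcoma cell line, after 48 h with vehicle (DMSO; 4 libraries) or with 5 µM TP-472 (4 libraries). TP-472 is an inhibitor of the bromodomains of BRD9 and BRD7, subunits of SWI/SNF chromatin remodelling complexes. Every library is the same cell line with no other treatment, and the study's methods call replicates biological. The labels do not say whether these libraries came from separate cultures, so p-values measure the spread between them. Total estimated counts ran from 32574672 to 38545464 per library. Smooth muscle markers were partly present: ACTA2 stood at 160 ± 16.7 CPM (counts scaled to library size by TMM; SD, n = 4) and CALD1 at 199.6 ± 15.3 in vehicle, whereas MYH11 and MYOCD were at or near 0. Of the 7 tested smooth muscle markers, 3 were called lower with TP-472, beside 14.9% of all genes tested. They were DES (-2.36 on the log2 scale), LMOD1 (-1.84) and TAGLN (-0.67), with -2.40, -1.68 and -0.64 in the fit without vehicle replicate 3. ACTA2 was at -0.55, under 1.5-fold, and was called lower in that second fit (-0.59). Of 7 leukocyte markers, CD68 alone passed the minimum (6.68 to 7.90 CPM in vehicle and 8.93 to 12.2 CPM with TP-472), and PTPRC (at most 0.0282 CPM), CD3E and TYROBP were at or near 0. Of 6 fibroblast markers 4 passed, led by COL1A2 (516 to 680 CPM in vehicle and 92.2 to 103 CPM with TP-472), FAP (9.50 to 18.8 and 17.5 to 20.6 CPM) and COL1A1 (2.58 to 21.9 and 1.30 to 2.09 CPM), while DCN and LUM were at or near 0. The part of all these markers in the results was not tested.

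One library stood apart. Vehicle replicate 3 had a median Spearman correlation of 0.914 with the other vehicle libraries, against 0.988 to 0.997 for each of the other 7 libraries with its own group. Relative to vehicle replicates 1, 2 and 4, its genes with transcript GC content up to 42.2% were lower (median log2 difference -0.69) and those from 56.6% were higher (0.92). The members followed the same order. PIK3CA, with the lowest GC content (34.8%), was 0.76 lower on the log2 scale in this library, and PIK3CD, with the highest (57.6%), was 0.90 higher. Over the 8 members with enough reads, the difference correlated with GC content at Pearson r = 0.961 and Spearman rho = 0.881, a description across genes that share 1 library. Members and called pathway genes are therefore given with and without vehicle replicate 3.

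**Figure D1:**
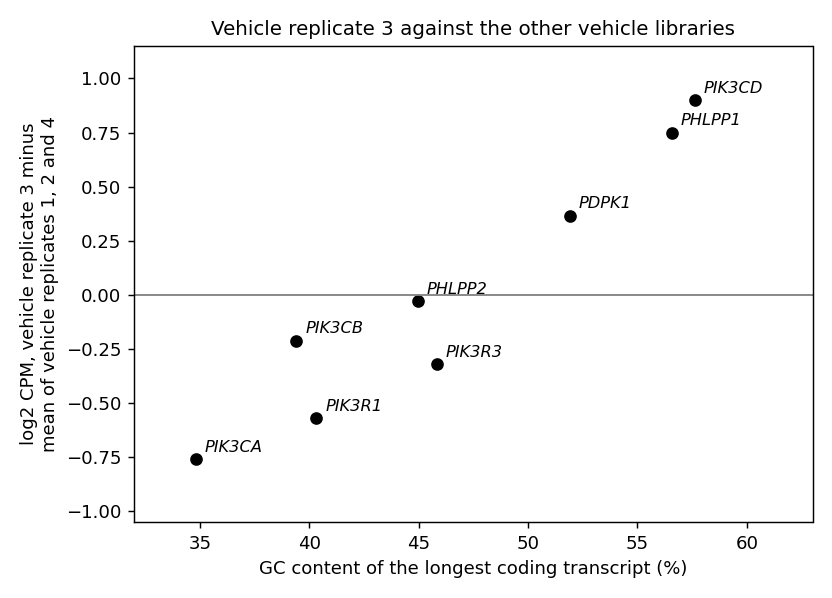
Log2 difference in TMM-scaled CPM between vehicle replicate 3 and the mean of the other vehicle libraries (vertical axis) against GC content of the longest coding transcript in percent (horizontal axis), 1 point per member. Points run from PIK3CA at 34.8% GC and -0.76 to PIK3CD at 57.6% GC and 0.90.

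The promoters of the 2 genes found below to be differentially expressed and of PHLPP2, the paralogue of PHLPP1, are shown because the fold changes of the paralogues had opposite signs. The bases are RefSeq sequence upstream of the annotated start on GRCh38.p14, 5′ to 3′ on the strand of the gene, with each CpG in capitals. They cover chr3:138834939-138835178 (minus strand, PIK3CB), chr18:62715291-62715449 (plus strand, PHLPP1) and chr16:71724702-71724951 (minus strand, PHLPP2).
PIK3CB: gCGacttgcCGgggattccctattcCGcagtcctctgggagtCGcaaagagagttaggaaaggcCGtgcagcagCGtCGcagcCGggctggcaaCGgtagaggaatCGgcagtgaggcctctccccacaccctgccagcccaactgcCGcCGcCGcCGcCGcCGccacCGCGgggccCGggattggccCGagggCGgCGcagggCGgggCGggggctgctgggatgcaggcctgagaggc
PHLPP1: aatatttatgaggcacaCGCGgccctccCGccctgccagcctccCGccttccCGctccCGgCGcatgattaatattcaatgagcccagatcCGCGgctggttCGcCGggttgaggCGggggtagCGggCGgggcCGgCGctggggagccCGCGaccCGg
PHLPP2: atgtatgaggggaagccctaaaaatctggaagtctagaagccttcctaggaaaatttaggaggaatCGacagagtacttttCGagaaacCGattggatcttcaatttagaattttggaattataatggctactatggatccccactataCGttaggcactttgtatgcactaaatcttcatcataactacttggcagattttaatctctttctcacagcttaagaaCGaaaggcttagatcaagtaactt
The stretches stop at the annotated 5′ end of the gene, so 159 bases with 19 CpG are shown for PHLPP1, 240 with 24 for PIK3CB and 250 with 5 for PHLPP2. In the full 250 bases before the RefSeq start, PHLPP1 held 33 CpG at 71.2% GC and PIK3CB held 27 at 72.8%, whereas PHLPP2 held 5 at 37.2%. Over all 35116 RefSeq windows of that length the median was 11 CpG at 58.0% GC, 8.15% of windows held as many CpG as PHLPP1 or more, and 38.1% held as few as PHLPP2 or fewer. PIK3R1 (37 CpG) and PDPK1 (42 CpG), neither of them called, held more than PHLPP1. Letters of 4 motifs were searched on both strands of 300-base windows (250 before and 50 after the start). TGTTTAC, read by forkhead factors, was found in PIK3CA and in none of the windows of the other 8 members, against 3.42% of all windows. The match lay 149 bases before the RefSeq start of PIK3CA, which is 243 bases past the annotated 5′ end of the gene. It is therefore inside the annotated gene. CACGTG (an E-box, in 7.26% of all windows) and TATAAA (in 11.5%) were in no window of PIK3CB, PHLPP1 or PHLPP2, and CCAAT (in 34.6%) was in every window of these 3 genes. These patterns were not particular to them. CCAAT was also in every window of PIK3CA and PDPK1 and in some windows of each remaining member. Outside the 3 genes, CACGTG was found only in INPP4B, and TATAAA only in PIK3R3 and INPP4B. These are matches of letters only.

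Mean levels per length placed the regulatory subunits first. In vehicle, PIK3R3 stood at 28.8 ± 3.16 CPM per kb of its longest coding transcript (SD, n = 4) and PIK3R1 at 15.4 ± 2.84, and every library had more PIK3R3 than the highest PIK3R1 value. PDPK1 (9.83 ± 1.44) and PIK3CB (9.56 ± 2.48) followed, with overlapping libraries. The libraries of PIK3R1 and PDPK1 also overlapped, through vehicle replicate 3. PHLPP2 (6.36), PHLPP1 (6.30) and PIK3CA (5.69) were next, and they too overlapped. PIK3CD, the subunit best known from leukocytes, was lower in every library than PIK3CA (0.645 CPM per kb), and INPP4B was lowest of all (0.0511). With TP-472 the top of the order was kept (PIK3R3 at 29.4 and PIK3R1 at 14.1 CPM per kb), and the mean of PHLPP2 (8.20) stood above those of PIK3CB (5.99), with overlap through TP-472 replicate 4, and PHLPP1 (3.74).

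**Figure D2:**
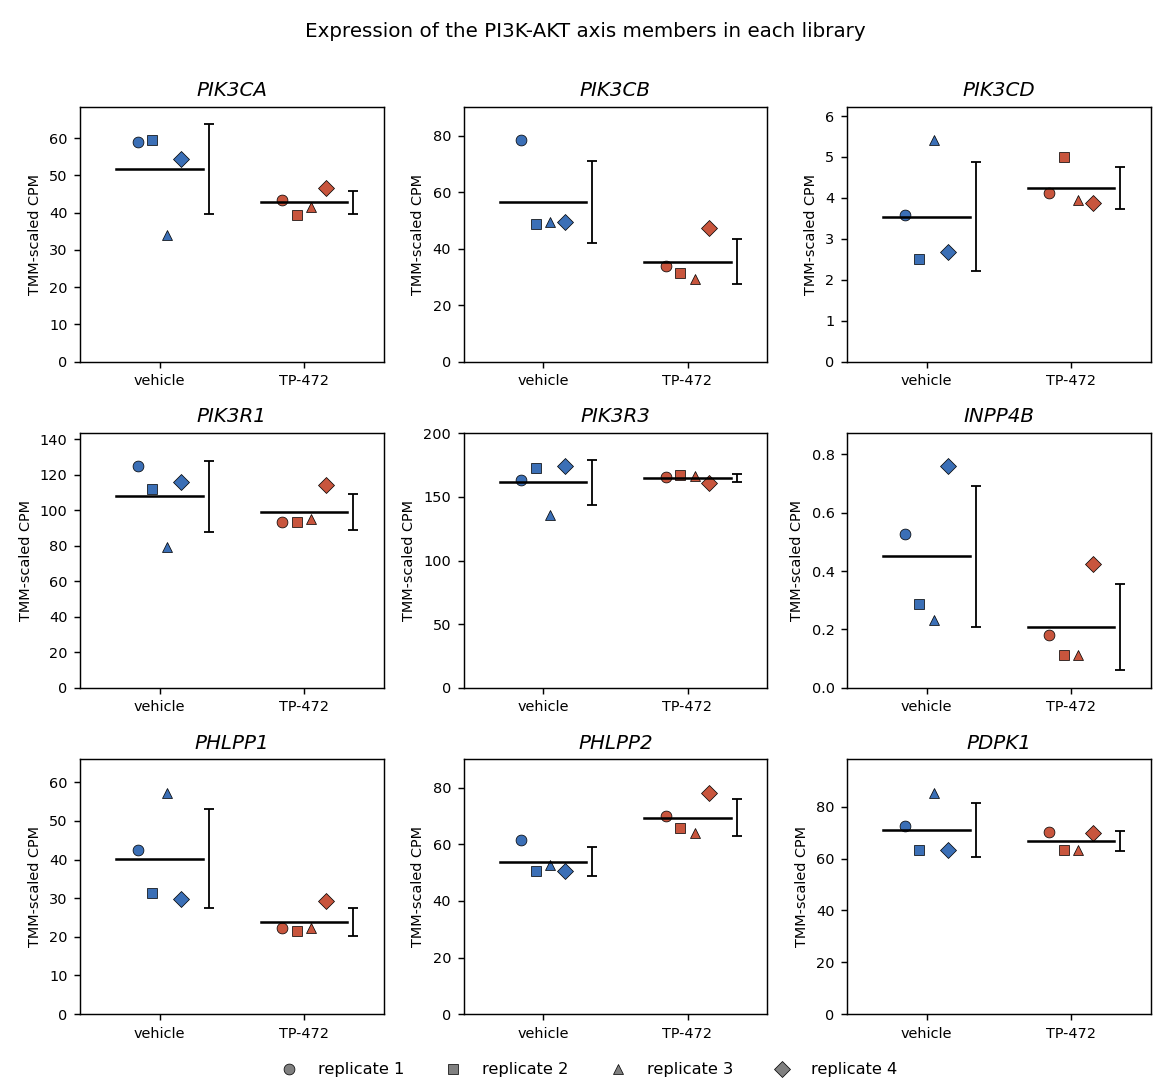
TMM-scaled CPM of each member (vertical axes, all from 0) in the 4 vehicle libraries (blue) and the 4 TP-472 libraries (red), with the replicate number by symbol, the group mean as a line and the SD as the bar beside it. PIK3CB, PHLPP1 and PHLPP2 are the members whose groups do not overlap, and vehicle replicate 3 (triangle) is the lowest vehicle library for PIK3CA, PIK3R1 and PIK3R3 and the highest for PIK3CD, PHLPP1 and PDPK1.

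The comparison of TP-472 with vehicle asked whether inhibition of BRD9/7 changed the transcripts of this pathway. Of the 9 members, 8 passed the minimum of 1 CPM in 4 libraries, and 2 of these were called differentially expressed at an adjusted p under 0.05 and a fold over 1.5 (edgeR's quasi-likelihood test, Benjamini-Hochberg adjustment over 14073 genes). Both PIK3CB and PHLPP1 were lower. Across all genes tested, 26.9% were differentially expressed, 14.9% lower and 12.0% higher, so 2 of 8 members was near the background. No member was higher by this rule in edgeR or in DESeq2. In edgeR, 1 member (PHLPP2) was higher at an adjusted p under 0.05 (0.0312) but at a fold of 1.29, under the limit of 1.5. Groups did not overlap for 3 of the 8 tested members, against 45.4% of all genes tested. The median log2 fold change was -0.11 over the members and -0.03 over all genes tested. Without vehicle replicate 3, 1 member (PIK3CB) remained differentially expressed, beside 25.5% of all genes (13.4% lower, 12.0% higher). In a culture measured in bulk, fewer cells with a transcript and less of it per cell cannot be told apart.

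**Figure D3:**
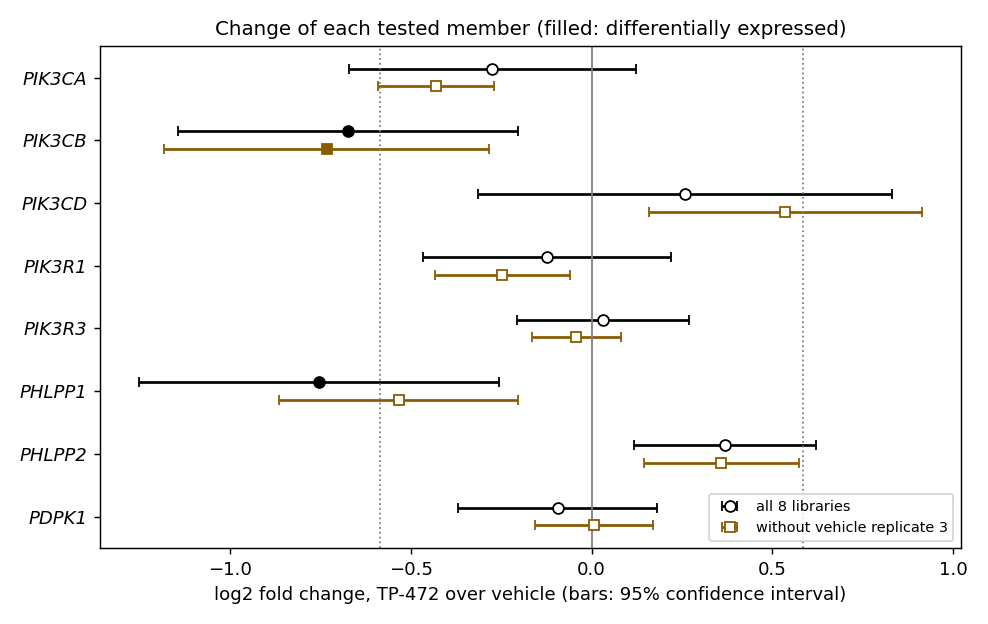
Log2 fold change of TP-472 over vehicle (horizontal axis) with its 95% confidence interval for the 8 tested members, from all 8 libraries (black circles) and without vehicle replicate 3 (brown squares). Filled symbols are differentially expressed, and dotted lines mark 1.5-fold. PIK3CB is filled in both fits and PHLPP1 in the fit of all libraries.

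Among the catalytic subunits, PIK3CB passed both limits. PIK3CB (chr3:138652699-138834938, minus strand, GRCh38) codes for p110 beta, which can be activated through G protein-coupled receptors as well as receptor tyrosine kinases. Its level was 78.6, 48.6, 49.6 and 49.5 CPM in vehicle replicates 1 to 4 and 33.9, 31.3, 29.4 and 47.2 CPM in TP-472 replicates 1 to 4. Vehicle replicate 1 was far above the other vehicle libraries and TP-472 replicate 4 far above the other treated ones, yet every treated library lay below every vehicle library. The log2 fold change was -0.67 (SE 0.21, 1.596-fold lower, edgeR adjusted p = 0.0333), and an exact two-sided permutation test gave p = 0.0286, the smallest that 70 assignments allow. With vehicle replicate 3 left out it was -0.73 (adjusted p = 0.0112). The call was lost without vehicle replicate 1 (-0.47, edgeR adjusted p = 0.0756) and without TP-472 replicate 1, 2 or 3 (adjusted p = 0.0835, 0.0937 and 0.0959). It was also lost with the replicate number as a block (edgeR adjusted p = 0.0517) and in edgeR's test against 1.5-fold (adjusted p = 0.547).

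PIK3CA (chr3:179148114-179240093, plus strand) codes for p110 alpha, the catalytic subunit best known from signalling by insulin and growth factor receptors. Its level was 59.0, 59.5, 33.99 and 54.4 CPM in vehicle and 43.3, 39.4, 41.6 and 46.7 CPM with TP-472. The treated libraries lay below vehicle replicates 1, 2 and 4 and above vehicle replicate 3, so the groups overlapped through that library alone. From all libraries the change was -0.27 (SE 0.18, edgeR adjusted p = 0.241). Leaving out vehicle replicate 3 gave -0.43 (SE 0.07, edgeR adjusted p = 0.000725), a fold of 1.35, which is under 1.5. With the GC trend removed from all 8 libraries it was -0.38 (edgeR adjusted p = 0.0015). The changes of PIK3CA and PIK3CB were not tested against each other.

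PIK3CD (chr1:9651732-9729114, plus strand) was close to the detection minimum, at 3.57, 2.501, 5.41 and 2.67 CPM in vehicle and 4.12, 4.99, 3.94 and 3.88 CPM with TP-472. Here vehicle replicate 3 was the highest of all libraries, and the treated libraries lay above the other vehicle libraries. Its log2 fold change was 0.26 (SE 0.25, edgeR adjusted p = 0.441), and 0.54 without vehicle replicate 3 (SE 0.17, edgeR adjusted p = 0.0210, 1.45-fold). With the GC trend removed from all 8 libraries it was 0.58 (edgeR adjusted p = 0.011), under 1.5-fold, and without vehicle replicate 2 it was 0.12. The gene lies across from CLSTN1 on the opposite strand, which had 2791 to 8790 counts per library, and from the antisense PIK3CD-AS2, with 37.0 to 101 counts. The kit marked strand, but use of strand in counting is not given in the sources used here, so the low values of PIK3CD are uncertain.

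As a share of the 3 class IA catalytic transcripts per length, PIK3CB made up 65.01%, 54.0%, 63.9% and 56.4% in vehicle and 51.0%, 50.2%, 48.4% and 57.7% with TP-472. It exceeded the other catalytic transcripts together in every library except TP-472 replicate 3, and the groups overlapped through TP-472 replicate 4. The summed catalytic level was 15.9 ± 3.15 CPM per kb in vehicle (SD, n = 4) and 11.5 ± 1.62 with TP-472, with overlap between vehicle replicate 3 (13.1) and TP-472 replicate 4 (13.8). Vehicle replicates 1, 2 and 4 averaged 16.8 ± 3.12, and in their comparison the groups were apart.

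Neither regulatory subunit among the members passed the test in the fit of all 8 libraries with no GC trend removed. PIK3R1 (chr5:68215720-68301821, plus strand), which stabilises the catalytic subunit and holds it inactive until a receptor is bound, stood at 125, 112, 79.1 and 116 CPM in vehicle and 93.5, 93.3, 95.2 and 114 CPM with TP-472. Vehicle replicate 3 was lowest, and TP-472 replicate 4 lay within the range of the other vehicle libraries. Its log2 fold change was -0.12 (SE 0.15, edgeR adjusted p = 0.538), and -0.25 without vehicle replicate 3 (SE 0.08, edgeR adjusted p = 0.0292, 1.19-fold). With the GC trend removed from all 8 libraries it was -0.21 (edgeR adjusted p = 0.0446), under 1.5-fold. Without vehicle replicate 1 it was -0.047 (edgeR adjusted p = 0.837).

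PIK3R3 (chr1:46040140-46133036, minus strand) codes for a shorter regulatory subunit and was the most abundant member. It stood at 163, 173, 136 and 174 CPM in vehicle and at 166, 168, 167 and 161 CPM with TP-472. The treated libraries lay inside the vehicle range. The log2 fold change was 0.03 (95% confidence interval -0.21 to 0.27, edgeR adjusted p = 0.827), and -0.04 (-0.16 to 0.08) without vehicle replicate 3, where its sign turned. AL358075.4, an entry that overlaps it on the same strand, was given 0 to 285 counts per library. The deposited counts name this entry P3R3URF-PIK3R3, so it is a joint entry that includes PIK3R3. The division of reads between the 2 entries is uncertain.

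The third regulatory gene of class IA, PIK3R2 (p85 beta), is not among the 9 members but shares their catalytic partners. It stood at 35.5, 22.0, 79.4 and 23.1 CPM in vehicle and 14.4, 13.7, 11.9 and 14.1 CPM with TP-472. It fell by 1.57 on the log2 scale (SE 0.39, edgeR adjusted p = 0.0143) with all libraries, and its change without vehicle replicate 3, the highest library, was -0.99 (adjusted p = 0.000613). Its share of the regulatory transcripts per length was 10.46% to 35.7% in vehicle (15.8%, 10.46%, 35.7% and 10.8%) and 7.68%, 7.28%, 6.37% and 7.22% with TP-472. PIK3R3 took 43.9% to 59.0% of the regulatory transcripts in vehicle and 59.2% to 64.3% with TP-472, without overlap. The gap was narrow, from 59.0% in vehicle replicate 2 to 59.2% in TP-472 replicate 4. PIK3R3 itself was not called (log2 fold change 0.03, edgeR adjusted p = 0.827), and its share also depends on PIK3R1 and PIK3R2. The sum of the 3 class IA regulatory genes was 54.1 ± 1.604 CPM per kb in vehicle (53.7 ± 1.74 without replicate 3) and 46.9 ± 0.98 with TP-472, also without overlap.

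**Figure D4:**
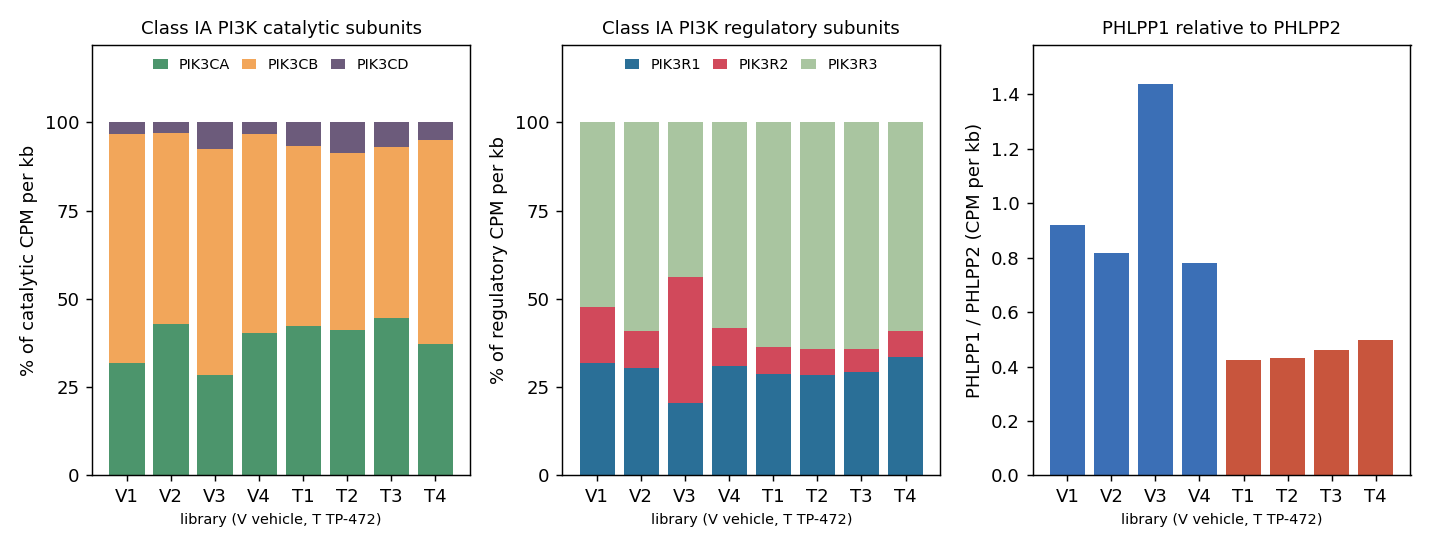
Share of each gene in the summed CPM per kb of the class IA catalytic (left) and regulatory (middle) transcripts, in percent, and the ratio of PHLPP1 to PHLPP2 in CPM per kb (right), for vehicle libraries V1 to V4 and TP-472 libraries T1 to T4. The PHLPP1 to PHLPP2 ratio is 0.425 to 0.497 in treated libraries and 0.782 to 1.44 in vehicle, and the share of PIK3R2 is highest in V3.

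INPP4B (chr4:142023160-142847432, minus strand) removes a phosphate from PI(3,4)P2, the lipid formed from PIP3, and was barely detected. It had 19, 10, 8 and 27 counts in vehicle libraries and 7, 4, 4 and 16 counts with TP-472, and it did not pass the minimum of 1 CPM in 4 libraries. TP-472 replicate 4 lay above vehicle replicates 2 and 3. The log2 ratio of mean CPM was -1.12, and an exact two-sided permutation test gave p = 0.114. Fitted by edgeR with no filter, INPP4B stood at -1.13 on the log2 scale (adjusted p = 0.182). DESeq2 without vehicle replicate 3 gave -1.36 (adjusted p = 0.0807). No difference was called in either fit, and whether low counts or the spread between libraries limited this was not tested.

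Of the AKT phosphatases, PHLPP1 fell, and PHLPP2 was higher by less than 1.5-fold. PHLPP1 (chr18:62715450-62980433, plus strand) stood at 42.6, 31.2, 57.3 and 29.8 CPM in vehicle and 22.4, 21.4, 22.3 and 29.4 CPM with TP-472. Every treated library was below every vehicle library, but TP-472 replicate 4 (29.4) almost met vehicle replicate 4 (29.8), and vehicle replicate 3 was the highest. The log2 fold change was -0.75 (SE 0.22, 1.69-fold lower, edgeR adjusted p = 0.0273), with p = 0.0286 in the exact permutation test. Without vehicle replicate 3 the groups still did not overlap, and the log2 fold change was -0.53 (SE 0.15, edgeR adjusted p = 0.0117), a fold of 1.45 and so under 1.5. With the GC trend of each library removed it was -0.48 (edgeR adjusted p = 0.0287), also under 1.5-fold. The adjusted p rose to 0.0651 without vehicle replicate 1 and to 0.0721, 0.0794 and 0.0778 without TP-472 replicate 1, 2 or 3. With the replicate number as a block it was 0.0633, and in edgeR's test against 1.5-fold it was 0.404.

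PHLPP2 (chr16:71637835-71724701, minus strand) stood at 61.4, 50.6, 52.8 and 50.4 CPM in vehicle and 69.9, 65.8, 63.9 and 78.3 CPM with TP-472. The lowest treated library was just above vehicle replicate 1, the highest vehicle library. The log2 fold change was 0.37 (SE 0.11, edgeR adjusted p = 0.0312), a fold of 1.29, and 0.36 without vehicle replicate 3 (adjusted p = 0.00986). The edgeR adjusted p was 0.0867 with total-count scaling, 0.0947 with no filter on low counts and 0.0912 with the replicate number as a block. It ran from 0.0551 to 0.0892 when vehicle replicate 2 or 4 or any one of the TP-472 libraries was left out. Vehicle replicate 3 differed from the other vehicle libraries by only -0.03 on the log2 scale for this gene. The ratio of PHLPP1 to PHLPP2 within a library, which does not depend on library scaling, was 0.919, 0.817, 1.44 and 0.782 in vehicle and 0.425, 0.431, 0.462 and 0.497 with TP-472. Over the 24 alternatives of processing fitted to both genes, the log2 fold change of PHLPP1 stayed between -0.87 and -0.47 and that of PHLPP2 between 0.31 and 0.44. The mean ratio was 0.989 ± 0.305 in vehicle (0.840 ± 0.0712 without replicate 3) and 0.454 ± 0.0333 with TP-472.

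PDPK1 (chr16:2537964-2603188, plus strand), which phosphorylates AKT in its activation loop, stood at 72.4, 63.4, 85.4 and 63.4 CPM in vehicle and 70.2, 63.2, 63.4 and 69.9 CPM with TP-472. Apart from vehicle replicate 3, the libraries of both groups covered the same range. The log2 fold change was -0.09 (95% confidence interval -0.37 to 0.18, edgeR adjusted p = 0.563), and 0.01 (-0.16 to 0.17) without vehicle replicate 3. The antisense gene AC093525.7 had 561 counts in vehicle replicate 3 and 75 to 150 in the other libraries, and the near-identical copy PDPK2P had 13.3 to 106 counts, highest in the same library, so part of the PDPK1 value there is uncertain.

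The genes whose levels were most like those of the called members over the 8 libraries were UBXN7 (Pearson r = 0.996), AKAP11 (0.995) and FGD6 (0.992) for PIK3CB, and NAV2 (0.997), ERC1 (0.996) and ZBED3 (0.995) for PHLPP1. These values are a description over libraries that include both treatments.

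Other genes of the pathway, 130 in 11 lists, were counted in the same fit. Of these, 114 passed the minimum and 32 were differentially expressed, 24 lower (21.1%) and 8 higher (7.02%), beside 14.9% and 12.0% of all genes. Their median log2 fold change was -0.15. Without vehicle replicate 3, 23 were differentially expressed, 16 lower (14%) and 7 higher (6.14%), beside 13.4% and 12.0% of all genes, with a median of -0.11. The share lower was thus near the background in that fit. Groups did not overlap for 54 of the 114, beside the 45.4% of all genes.

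**Figure D5:**
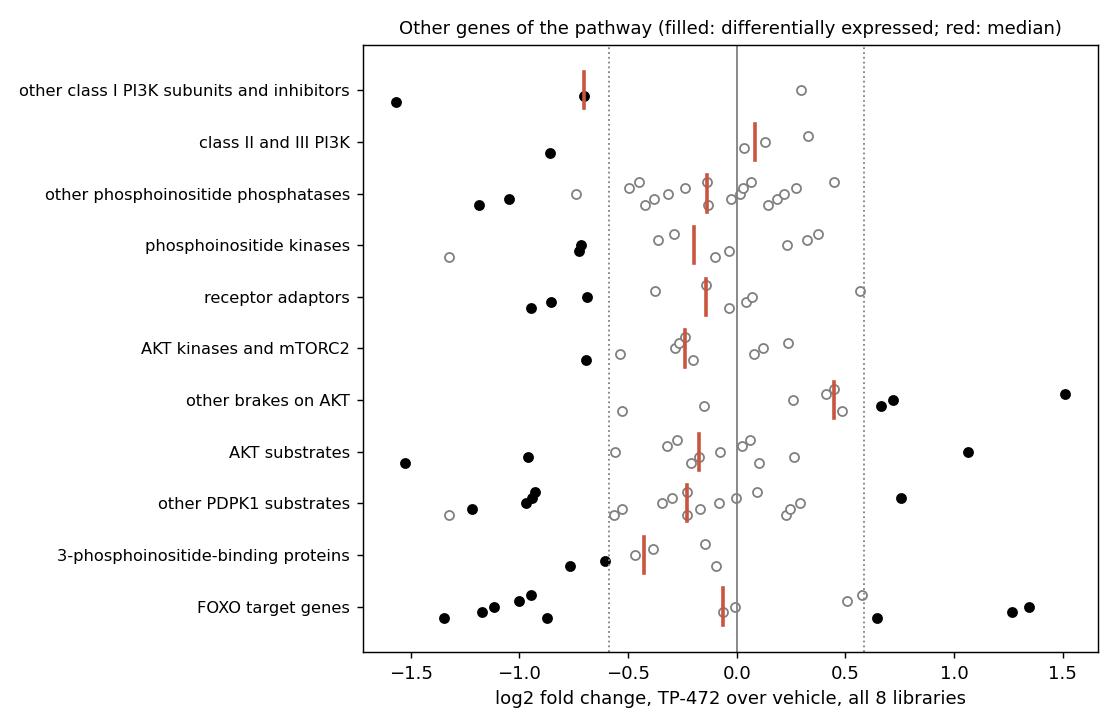
Log2 fold change of TP-472 over vehicle (horizontal axis, all 8 libraries) of each tested gene in the 11 pathway lists, with differentially expressed genes filled, the median of each list in red and dotted lines at 1.5-fold. The called genes of the brakes on AKT all lie to the right, at 0.66 to 1.51. Those of the receptor adaptors all lie to the left, at -0.95 to -0.69, as do the called genes of several other lists. Of all genes tested, 12.0% were called higher and 14.9% lower.

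Around PI3K itself, the changes called were decreases. Of all genes tested, 14.9% were called lower and 12.0% higher. Of the 3 tested genes among other class I subunits and inhibitors, 2 fell, PIK3R2 and PIK3IP1, an inhibitor of the catalytic subunit (-0.70, adjusted p = 0.0151, and -0.60 without vehicle replicate 3). PIK3C2B, a class II kinase, was the 1 of 4 tested class II and III genes that fell (-0.86, and -0.55 without vehicle replicate 3, under 1.5-fold). Receptor adaptors link receptors to PI3K, and 3 of 9 tested fell: IRS2 (-0.95, adjusted p = 0.0487), GAB2 (-0.86, adjusted p = 0.00176) and SHC1 (-0.69, adjusted p = 0.00284). Without vehicle replicate 3, GAB2 alone of these 3 passed both limits (-0.76), which is 11.1% of the tested adaptors beside 13.4% of all genes. IRS2 in that fit was -0.53 and SHC1 -0.58, both under 1.5-fold.

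Among 20 other tested phosphoinositide phosphatases, 2 fell. INPPL1 (SHIP2), which takes the 5-phosphate from PIP3, stood at 89.0 to 186 CPM in vehicle and 47.6 to 56.3 CPM with TP-472 (log2 fold change -1.18, edgeR adjusted p = 0.00553, and -0.87 without vehicle replicate 3). INPP5E, another 5-phosphatase, fell by 1.05 on the log2 scale with all libraries and stood at -0.57 without vehicle replicate 3, under 1.5-fold. Of 10 tested phosphoinositide kinases, which supply the substrate, PI4K2B (-0.73, adjusted p = 0.0178) and PI4KA (-0.72, adjusted p = 0.0143) fell. PI4KA was -0.52 without vehicle replicate 3, under 1.5-fold, and PI4K2B was -0.90. PLEKHA2 (-0.76) and CYTH3 (-0.61), proteins that bind 3-phosphoinositides, were called among 6 tested. Without vehicle replicate 3 PLEKHA2 was -0.68 and CYTH3 -0.57, the latter under 1.5-fold.

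Downstream, AKT2 was the 1 of 9 tested genes of AKT and mTORC2 that fell (-0.69, adjusted p = 0.0192, and -0.46 without vehicle replicate 3, under 1.5-fold). AKT1 (-0.28, edgeR adjusted p = 0.116, and -0.16 with adjusted p = 0.0697 without vehicle replicate 3) did not pass the test. Among 9 other tested brakes on AKT, 3 rose, beside 12.0% of all genes called higher. The difference of the list from all genes was not tested. The 3 were the catalytic subunits of the phosphatase PP2A, PPP2CA (0.72, adjusted p = 0.0145) and PPP2CB (0.66, adjusted p = 0.0248), and TRIB1, a pseudokinase (1.51, adjusted p = 0.000372). PPP2CA (0.56) and PPP2CB (0.49) were under 1.5-fold without vehicle replicate 3, where TRIB1 was at 1.66. TRIB3, a related pseudokinase named after its values were seen, was called in that fit (0.67, adjusted p = 5.4e-05) and not with all libraries (0.45, adjusted p = 0.0837). Without vehicle replicate 3, 22.2% of the tested brakes were called higher, beside 12.0% of all genes.

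Substrates moved both ways. Of 13 tested AKT substrates, CDKN1B, the cell cycle inhibitor p27, fell by 1.53 on the log2 scale (adjusted p = 0.000236), from 73.3 to 108 CPM in vehicle to 27.6 to 35.8 CPM with TP-472. TBC1D4, which controls glucose transporter traffic, rose (1.06, adjusted p = 0.00122), and TSC2, a brake on mTORC1, fell (-0.96, adjusted p = 0.0485) with all libraries and was -0.45 without vehicle replicate 3, under 1.5-fold. In that fit CDKN1B was -1.62 and TBC1D4 1.04. Of 19 other PDPK1 substrates tested, SGK1 rose (0.75, adjusted p = 0.0131) while PKN3 (-1.22), RPS6KA2 (-0.97) and PRKCA (-0.93) fell. These are kinases related to AKT. Leaving out vehicle replicate 3, SGK1 was 0.61, PKN3 -0.91, RPS6KA2 -0.60 and PRKCA -0.76, each still called.

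FOXO factors are held out of the nucleus by AKT, and 9 of 13 tested genes listed as their targets were called, 3 higher and 6 lower. Of all genes tested, 12.0% were higher and 14.9% lower. The difference of the list from all genes was not tested. TXNIP (1.34, adjusted p = 0.000434), GADD45A (1.27, adjusted p = 0.000981) and BCL2L11 (0.64, adjusted p = 0.0375) rose. PDK4 (-1.35), ERBB3 (-1.17), INSR (-1.11) and CCNG2 (-0.999) fell most. INSR and ERBB3 are receptors upstream of PI3K, and IRS2, given above, is on this list too. In the fit without vehicle replicate 3, 8 of the 13 were called (23.1% higher and 38.5% lower, beside 12.0% and 13.4% of all genes). IRS2 was the one lost. There TXNIP was 1.22, GADD45A 1.46, BCL2L11 0.60, PDK4 -1.52, ERBB3 -1.18, INSR -0.95 and CCNG2 -1.13.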

How the data were processed

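RNA of SK-UT-1 cells (4 vehicle and 4 TP-472 libraries) was measured by strand-marking total RNA sequencing. The authors made estimated counts per gene with Salmon (version 1.4.0 in the submitters' processing notes) and tximport against GENCODE annotation of GRCh38, and deposited them unnormalized. The deposited estimated counts were rounded to whole numbers. Genes over 1 CPM in at least 4 libraries (14073) were scaled by TMM and fitted with edgeR 4.0.16 (R 4.3.3, no covariate). Differential expression meant a Benjamini-Hochberg adjusted p under 0.05 and a fold over 1.5. Fits without a library kept the same 14073 genes. Exact permutation tests used log2(CPM + 0.1). Lengths, GC content and overlaps came from GENCODE models on GRCh38. The fit was tested on simulated data. Alternatives were other scalings, filters and tools (limma 3.58.1, DESeq2 1.42.0), a replicate block, removal of GC trends and leaving out libraries.

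The members, lists and tests were chosen with earlier results of these data known. All members were named. Of each list every called gene was named where at most 8 were called, otherwise the 4 with the largest change in each direction, plus AKT1, AKT2 and PIK3R2 in any case. Some genes that this rule reaches are not reported here. Of the marker lists, genes called by the same rule numbered 3 of 7 tested for smooth muscle and 2 of 4 for fibroblast (COL1A1 and COL1A2), all lower, and 2 of 3 for epithelium (KRT18 higher, KRT19 lower), with 1 tested leukocyte gene not called and endothelial markers under the minimum. Of all genes tested, 14.9% were called lower and 12.0% higher.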

Additional observations from a re-analysis of the deposited data

Results flagged for a closer look

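Of 18 sets of 4 libraries (9 members in 2 groups), 3 held a library far from the other 3. Chance alone gives about 1 set in 20 where sets are independent. These sets share libraries, so they are not independent, and their count was not tested against chance. PIK3CB stood at 78.55 CPM in vehicle replicate 1, with the other vehicle libraries at 48.6 to 49.6. PIK3R1 stood at 114 CPM in TP-472 replicate 4, with the other treated libraries at 93.3 to 95.2. PHLPP1 stood at 29.38 CPM in TP-472 replicate 4, with the other treated libraries at 21.4 to 22.4.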

How the results depend on the processing

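Members lower numbered 2 under every scaling and low-count filter, robust estimation, limma-voom, DESeq2 and no fold limit, 1 (PIK3CB) with the GC trend removed, and 0 in the test against 1.5-fold and with the replicate block. Leaving out 1 library gave 0 to 2, with 0 without vehicle replicate 1 or TP-472 replicate 1, 2 or 3. Members higher rose from 0 to 1 (PHLPP2) with no fold limit. DESeq2 gave 2678 genes higher in all, and the test against 1.5-fold 529 higher and 594 lower. Genes lower ran from 1387 (without TP-472 replicate 3) to 2399 with 1 library left out. PIK3R3 turned to -0.00495 on the log2 scale with the GC trend removed, and to -0.0417 without vehicle replicate 3 (0.0702 at most under the leave-outs). PDPK1 ran from -0.145 to 0.00642, positive without vehicle replicate 3. The replicate block gave 1500 genes higher and 1555 lower, and took PIK3CB to an edgeR adjusted p of 0.0517 and PHLPP1 to 0.0633. Same-numbered libraries did not deviate together from their group means (correlations -0.06, 0.12, -0.17 and -0.18). The labels give no pairing. With 4 libraries per group, 1 of them shifted by GC content, these values cannot decide whether the numbers pair libraries. The largest correlation between a vehicle and a TP-472 library was 0.397, for vehicle replicate 1 with TP-472 replicate 4. Its cause was not tested.

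Chosen after seeing the data, fits without vehicle replicate 3 gave 1 member lower (PIK3CB) in DESeq2, in limma-voom and with the GC trend removed, where 1 member was also higher (PIK3CD, 0.61, edgeR adjusted p = 0.00822). DESeq2 gave 2563 genes higher in that set. PIK3R3 was then at -0.0650 (GC trend removed), -0.0575 (DESeq2) and -0.0412 (limma-voom), and PDPK1 at 0.00747 (limma-voom). Without vehicle replicate 1 and TP-472 replicate 4 together, 999 genes were higher, 1018 lower and 1 member (PIK3CB) lower. INPP4B, at 4 to 27 estimated counts per library, did not pass the minimum of the main fit. The cause of these changes was not tested.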
